A study of Rattus norvegicus with 42 samples.

Results

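The extensor digitorum longus (EDL), the fast muscle of the rat hindlimb, was compared between rats kept under hindlimb unloading for 3 days (D3) and control rats, at the level of transcription start sites. Members were the 6 EDL libraries of these groups and every deposited peak of transcription start sites (TSS peak) outside the mitochondrial genome, which gave 9969 of the 9971 peaks and 6 of the 42 libraries. The control group comprised the EDL of rats U6, U7 and U8 in the normal state, and the D3 group that of rats U9, U10 and U11. All came from mature Wistar rats; the study had 21 animals, 3 in each of 7 groups, with the EDL and the soleus of the same animals sequenced. The other groups used below for comparison were rats unloaded for 1 day (D1, labelled 24 hours) and 7 days (D7), and rats that recovered for 1, 3 and 7 days (R1, R3, R7) after 7 days of unloading. The replicate is the rat. No genotype or drug distinguished the groups, and suspension by the tail unloads the hindlimbs while the rest of the animal stays active.

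The EDL lifts the toes and is made mainly of fast fibres, whereas the soleus is a slow postural muscle. Fibre identity is set largely by which myosin heavy chain gene a fibre transcribes, and Myh4 encodes the fast type IIb chain. The cap analysis of gene expression (CAGE) used here captures the capped 5′ end of RNA, so that each tag marks the base and the strand where a transcript began, and a peak is a cluster of such starts. A gene may have several peaks, because it can use alternative promoters and because capped ends are also found inside the bodies of abundant transcripts.

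The peaks lie on the Rnor_6.0 build and carry no gene names, and no annotation of that build was used here. Peaks are therefore given by chromosome, range and strand, and only the Myh4 and Rtkn windows that the study drew in its genome browser view could be tied to a gene. Since of these windows only that of Myh4 held called peaks, the Myh4 promoter is shown, as the 250 bases before the RefSeq start, at chr10:52421898-52422147 of the GRCr8 build, plus strand. That build differs from the one of the peaks, and no position was converted between them. Capitals mark TATAAA, the core of a TATA box, searched on both strands, so that a match on the minus strand reads TTTATA:

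Myh4 promoter: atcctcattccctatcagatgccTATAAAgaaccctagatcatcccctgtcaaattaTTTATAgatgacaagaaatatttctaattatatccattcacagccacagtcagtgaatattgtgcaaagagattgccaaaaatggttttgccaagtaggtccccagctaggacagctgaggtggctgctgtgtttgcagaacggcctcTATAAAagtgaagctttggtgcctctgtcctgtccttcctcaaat

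The matches lie at bases 227 to 222 and 45 to 40 before the start on the gene's strand and at bases 193 to 188 on the other strand. TATAAA occurred on either strand in 4328 of 33469 RefSeq promoters of the same length (12.9%), and the letters alone say nothing of which start was used in these muscles.

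The 3 control libraries were shallower than the 3 D3 libraries. They held 11462263 (U6), 3281944 (U7) and 5472051 (U8) tags in peaks, against 17864719 (U9), 22116123 (U10) and 16010122 (U11). The share of all mapped tags that fell inside peaks was 73.1% in U7, the lowest of the 21 EDL libraries (median 92.1%), 84.7% in U8 and 92.0% to 95.7% in the other 4. Mitochondrial tags made up 6.30% to 10.6% of the tags. All EDL controls were sequenced in lane 1, where no other EDL library was placed, and the D3 libraries in lanes 2, 6 and 3, so that within the EDL the control state and the lane cannot be told apart. The soleus controls were in lane 1 as well, and the soleus libraries of D3 rats U9, U10 and U11 in lanes 2, 2 and 3. Control and D3 thus shared no lane in the soleus either. The muscle labels held: the summed sense-strand level of the Myh4 window was 2979 to 3505 CPM in the EDL controls and 6.06 to 35.7 CPM in the soleus of the same rats, both scaled over all 42 libraries. CPM is the number of tags scaled to a fixed library total.

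Of the 9969 peaks, 9343 had enough tags to be tested and 626 did not. Levels are CPM with library sizes scaled by the trimmed mean of M values (TMM). Calls were made with edgeR's quasi-likelihood test over all 21 EDL libraries, and needed a Benjamini-Hochberg adjusted p below 0.05 and a change of more than 2.38-fold in either direction, the study's own cutoffs. After 3 days of unloading, 90 peaks rose and 28 fell, which is 0.963% and 0.3% of the tested peaks, 1.26% together. Rises had a median log2 fold change of 2.16 (range 1.26 to 9.35) and falls one of -2.33 (range -5.49 to -1.33), against 0.04 over all tested peaks. The value of 9.35 belongs to chr5:160471679-160471960, minus strand, which had 0 tags in the controls and 8.77, 17.3 and 1.35 CPM at D3; it is fitted against 0, and the counts give an increase of at least 65.4-fold with the floor set at 3 tags over the 3 controls. Every D3 library lay above every control in 89 of the 90 rises, where 15.2% of all tested peaks showed such a gap, and below every control in 28 of the 28 falls, against 13.1%; the calls and the gaps come from the same values. The exception among the rises was chr3:82855979-82856175, minus strand, with 1.84, 4.29 and 0.639 CPM in controls and 14.5, 44.6 and 3.43 CPM at D3.

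**Figure D1:**
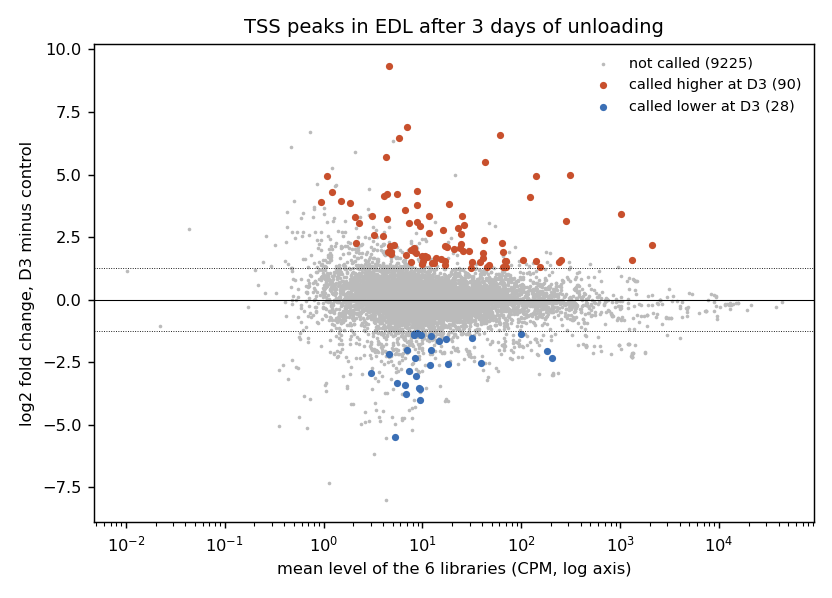
Each point is one of the 9343 tested TSS peaks in EDL, with its mean level over the 6 libraries on a logarithmic CPM axis and its log2 fold change (D3 minus control) on the other axis. The 90 peaks called higher are red, the 28 called lower are blue, and dotted lines mark changes of 2.38-fold. The calls are spread over the range of levels, and most lie below the best expressed peaks.

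The control level enters the call, and a peak near 0 in controls cannot be called lower, so the starting levels of the called peaks are given as a description. The median control level was 4.94 CPM among the rises, which reached a median of 20.8 CPM at D3, and 16.3 CPM among the falls, which went to 3.92 CPM; over all tested peaks the control median was 9.94 CPM. Controls were under 1 CPM in 19 of the rises and in 0 of the falls, and at or above 100 CPM in 5 rises and 3 falls, against 740 of all tested peaks. The median width was 260 nt for rises, 175 nt for falls and 210 nt for all tested peaks. No other deposited peak lay within 5000 nt on the same strand for 58 of the 90 rises (64.4%), 14 of the 28 falls and 74.5% of tested peaks, so that the share standing alone was lower among the rises than over all tested peaks.

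The libraries did not contribute equally to these calls. Among the 3 D3 libraries U10 was highest in 56 of the 90 rises and U11 lowest in 62, and among the controls U7, the shallowest, was lowest in 50 and U6 highest in 49. Among the 28 falls U11 was the highest D3 library in 15 and U7 the highest control in 14. With U7 left out 5 peaks were called, all higher, and with U11 left out 650 (253 higher and 397 lower); leaving out U6, U8, U9 or U10 gave 54 (16 lower), 30 (11 lower), 33 (1 lower) and 30 (4 lower). Of the 28 falls, edgeR's quasi-likelihood test called 0 without U7 and 0 without U9, where 1201 and 1060 of all tested peaks had an unadjusted p under 0.05. Tag totals as library sizes in place of TMM moved the median log2 change of all tested peaks to 0.25 and the share of rises among the calls from 76.3% to 87.7% (114 higher, 16 lower). A fit over all 42 libraries with the lane as a block called 0 peaks, with 693 at an unadjusted p under 0.05. In that fit the 118 peaks, rises and falls together, had a median log2 change of 1.68, against 1.87 in the fit over all 42 libraries without lane, and the median standard error over the tested peaks was 0.71 against 0.37. The only library of lane 1 that is not a control is the soleus of D1 rat U24. The lane term between control and D3 therefore rests on that 1 library of the other muscle.

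Of the Myh4 and Rtkn windows only that of Myh4, on chromosome 10, held called peaks. In it all 35 sense peaks and all 9 antisense peaks were below control at D3. The 35 sense peaks lie between 53778241 and 53800524 on the plus strand, and their summed level was 2679 (U6), 3099 (U7) and 2756 CPM (U8) in controls and 1393 (U9), 1229 (U10) and 1412 CPM (U11) at D3. The groups did not overlap, and the D3 mean was 47.3% of the control mean. An exact two-sided permutation test of the sum gave p = 0.1, the smallest that 3 rats against 3 allow. The myosin heavy chain genes are near-identical in places and the study allowed a read to map to several loci, so that tags of this window may in part stem from neighbouring family members.

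The lower level ran along the whole window and not its start alone. Log2 fold changes of the 35 sense peaks had a median of -1.14 and ranged from -1.61 to -0.43, 31 had an unadjusted p under 0.05 (1678 of the 9343 tested peaks, 18%, in either direction), and in 32 every D3 library was below every control (13.1% of tested peaks). The 35 peaks lie in the same window and were read in the same libraries, so they are not 35 separate observations. After adjustment 3 of them were called, where 0.3% of all tested peaks were called lower. The 3 were chr10:53786018-53786101, chr10:53786238-53786363 and chr10:53786922-53787049 (none of them called without U7 or without U9), with log2 fold changes of -1.59 ± 0.36, -1.44 ± 0.34 and -1.53 ± 0.36 (standard error). The most strongly expressed of the 3, chr10:53786922-53787049, had 48.4, 46.1 and 46.9 CPM in controls and 14.2, 14.6 and 20.3 CPM at D3. Most sense tags of the window did not start at its 5′ end, since the first 2 sense peaks held 1.36% of the sense level in controls.

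The antisense peaks inside the same window were lower still relative to control. Their summed level was 80.2, 98.9 and 98.0 CPM in controls and 11.7, 8.72 and 33.7 CPM at D3, so that the D3 mean was 19.5% of the control mean (exact two-sided permutation p = 0.1, the smallest possible). As a share of the sense level, antisense tags were 3.25% ± 0.28 (SD, n = 3) in controls and 1.31% ± 0.93 (SD, n = 3) at D3, where U11 stood at 2.39% and U9 and U10 at 0.839% and 0.710%. The log2 fold changes of the 9 peaks had a median of -2.32. The called ones were chr10:53783884-53783940 (14.9, 12.9 and 14.3 CPM in controls, 1.73, 1.82 and 4.96 CPM at D3, log2 fold change -2.32 ± 0.41, adjusted p = 0.010) and chr10:53793027-53793232 (6.45, 25.4 and 14.3 CPM against 1.08, 0.847 and 3.49 CPM, log2 fold change -3.06 ± 0.73, adjusted p = 0.042). Another antisense peak that was called, chr10:53778144-53778270, overlaps the first sense peak at the upstream edge; it was outside the naming rule and was chosen after its values were seen. It went from 12.2, 6.43 and 11.3 CPM to 1.18, 0.635 and 1.22 CPM (log2 fold change -3.32, adjusted p = 0.014).

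**Figure D2:**
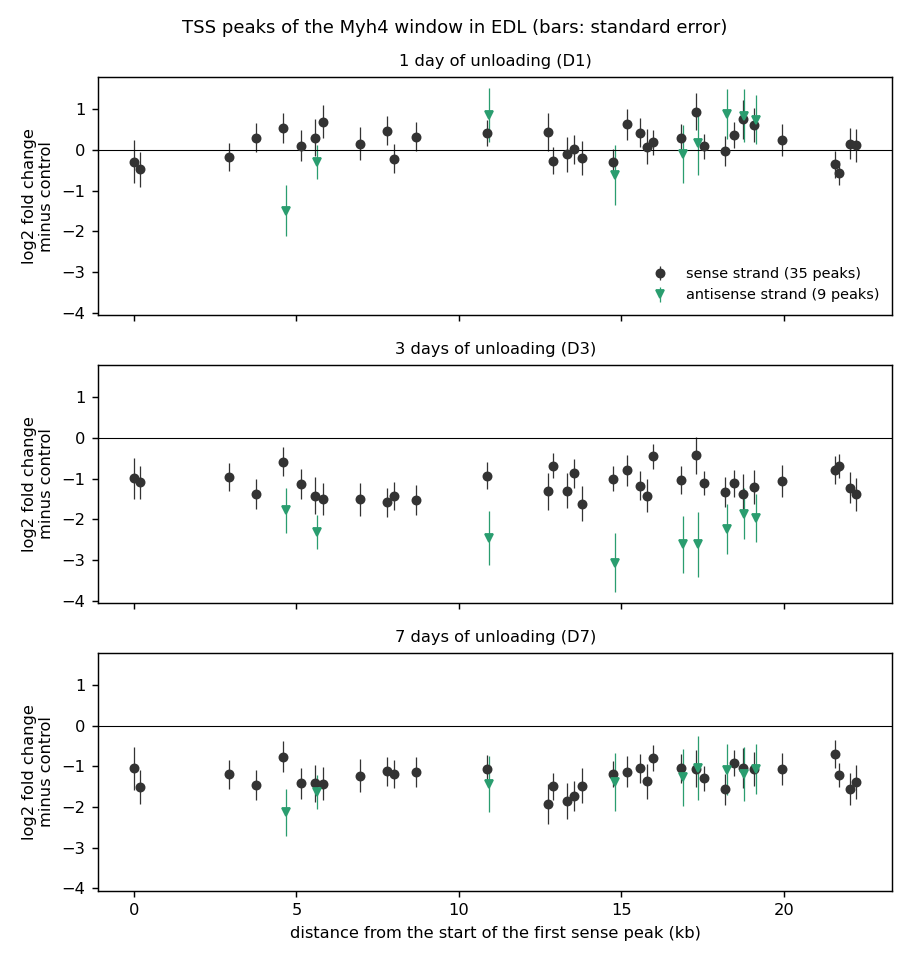
Log2 fold changes against control with standard errors for the 35 sense (circles) and 9 antisense (triangles) peaks of the Myh4 window in EDL, by distance in kb from the start of the first sense peak, for D1, D3 and D7. At D1 the peaks scatter around 0, at D3 all lie below 0 with the antisense peaks lowest, and at D7 both strands lie near -1 to -2.

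In time, the summed sense level of the Myh4 window overlapped control at D1, lay below every control in all D3, D7, R1 and R3 rats, and overlapped control again at R7. In the order D1, D3, D7, R1, R3, R7 the median log2 change of the sense peaks against control was 0.16, -1.14, -1.20, -1.27, -1.07 and -0.54. At D7, 5 of the 35 sense peaks were called, where 0.492% of all tested peaks were called lower and 0.599% higher than control. In recovery edgeR's quasi-likelihood test called 0 of the 35 at R1, R3 and R7, as it called 0 of all 9343 tested peaks (0%) in each; at an unadjusted p under 0.05 there were 32, 25 and 3 sense peaks and 899, 1294 and 408 of all tested peaks. Summed sense levels ranged from 2028 to 5461 CPM in the D1 rats, from 1005 to 1625 CPM in the D7 rats, and over recovery from 823 to 1564, 1358 to 1904 and 1497 to 2852 CPM. The highest R7 rat, U13, lay above the controls U6 and U8. The D1 libraries differed widely among themselves, and all 3 lay above every D3 library. Between D3 and D1 directly, 14 of the 35 sense and 5 of the 9 antisense peaks were called, where 159 of the 9343 tested peaks were called lower at D3 than at D1 (1.7%) and 94 higher (1.01%). The antisense median was 0.16 at D1 and -1.27 at D7.

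The starts just upstream on the same strand were followed for comparison. Over the 57 plus-strand peaks in the 60000 nt before the window, none of which were assigned to a gene here, edgeR's quasi-likelihood test called 0, where 0.3% of all tested peaks were called lower, and 3 had an unadjusted p under 0.05; 31 had a change below 0, against 47.2% of all tested peaks, and their median log2 fold change was -0.04. Their summed level was 1848, 3449 and 2559 CPM in controls and 2241, 2671 and 2968 CPM at D3, with overlapping groups (exact two-sided permutation p = 1). The Rtkn window, the other one named, held 1 low peak at chr4:114835675-114836032 with 0.670, 0 and 0.639 CPM in controls and 1.23, 1.74 and 0.857 CPM at D3, which was not called (adjusted p = 0.35).

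Among the rises, peaks were named as the 12 with the largest fold change of those without overlap and with at least 10 CPM on average in either group, which 68 of the 90 rises met. Some of these were nearly silent in control EDL. The largest named rise was at chr8:117172660-117172863, plus strand, with 0.0837, 0 and 0.213 CPM in controls (2 tags in all) and 11.04, 28.1 and 2.88 CPM at D3. The ratio of pooled tags was 151, with a 95% counting interval of 41.6 to 1248. Likewise, chr12:13108911-13109087, plus strand, had 2 control tags, all in U7, and 11.98, 15.4 and 6.67 CPM at D3 (ratio 115, interval 31.8 to 954). These intervals cover counting error only.

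Other rises began from a low but measurable level. At chr2:187692170-187692456, plus strand, controls had 0.837, 0.714 and 2.34 CPM and D3 libraries 120, 227 and 18.3 CPM (log2 fold change 6.57 ± 1.18, adjusted p = 0.0099). At chr8:81963512-81963882, plus strand, levels went from 3.18, 0.714 and 0.639 CPM to 108, 102 and 41.1 CPM (5.51 ± 1.00, adjusted p = 0.010). U11 was the lowest D3 library at both. The log2 fold changes of chr1:254735508-254735753 (minus), chr17:19056765-19056962 (plus), chr20:6351417-6351568 (plus), chrX:66602429-66602580 (minus), chr15:4069082-4069615 (plus) and chr5:154109163-154109434 (plus) were 4.94, 4.36, 4.22, 3.81, 3.80 and 3.58. Of these 6, chr20:6351417-6351568 was the least even, with 0.419, 0.714 and 0.639 CPM in controls against 8.33, 21.3 and 1.41 CPM at D3 (adjusted p = 0.042).

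A further set of rises began from a control mean above 10 CPM. At chr1:261281619-261281935, plus strand, controls had 19.3, 13.2 and 7.88 CPM and D3 libraries 153, 149 and 395 CPM, a fitted 17.0-fold change (log2 4.09 ± 0.44, adjusted p = 0.000117). At chr5:159967736-159968618, plus strand, the values were 76.9, 34.3 and 61.1 CPM against 479.8, 596 and 457 CPM, 8.85-fold (3.15 ± 0.35, adjusted p = 0.000117). A second peak of that 3-peak group was also called, and the group's changes ran from 2.89 to 3.15. At chr9:119328971-119329559, minus strand, the values were 12.1, 27.9 and 18.3 CPM against 542, 818 and 459 CPM, 31.6-fold (4.98 ± 0.71, adjusted p = 0.0025). In all 3 peaks the lowest D3 library was several times the highest control.

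**Figure D3:**
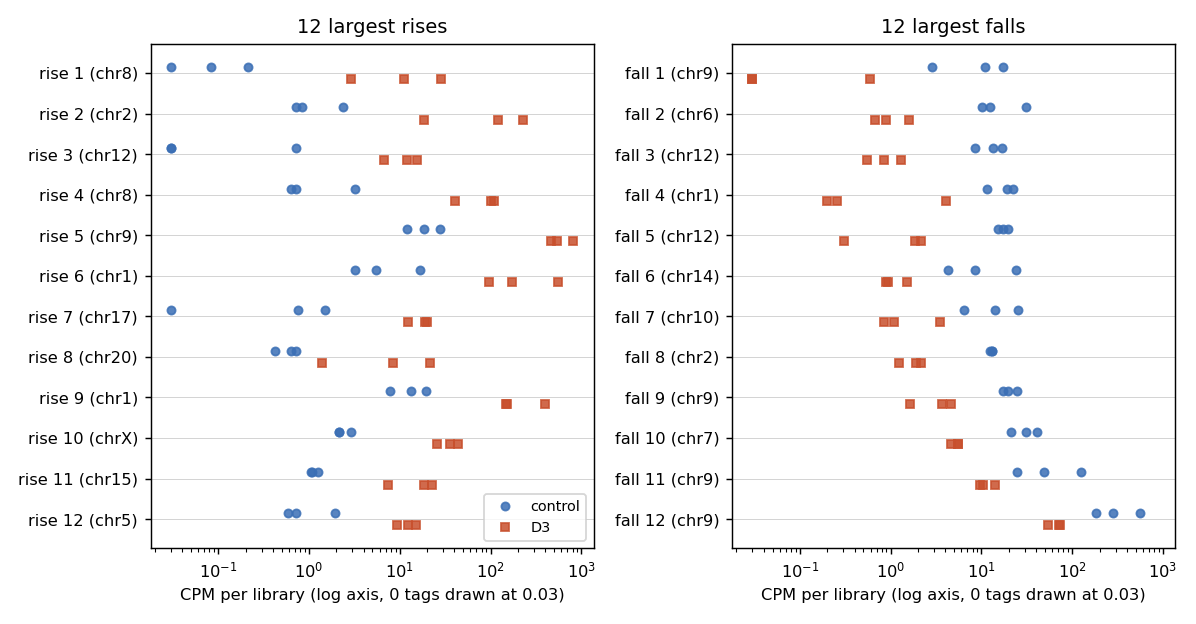
Levels per library (CPM, logarithmic axis, 0 tags drawn at 0.03) of the 12 largest rises and 12 largest falls in EDL among called peaks without overlap and with at least 10 CPM on average in either group, ordered by fold change, with controls as blue circles and D3 as red squares. That rule makes the groups separate within each peak, and the 3 D3 libraries spread widely at some rises and at some falls.

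Of the 6 called peaks with the highest level, all rose. The highest was chr8:55178466-55179112, plus strand, which went from 730 (U6), 594 (U7) and 941 CPM (U8) to 2849.7 (U9), 5037 (U10) and 2342 CPM (U11), 4.51-fold (log2 2.17 ± 0.46, adjusted p = 0.022). Next came chrX:159157881-159158453, plus strand, with 623, 565 and 765 CPM against 1846, 1733 and 2306 CPM (1.59 ± 0.26, adjusted p = 0.0077). The third, chr16:6962574-6963118, plus strand, was tight in controls (178, 160 and 181 CPM) and wide at D3 (1883, 3143 and 533 CPM; 3.42 ± 0.74, adjusted p = 0.024), and chr12:23840390-23841131, minus strand, went from 147, 124 and 107 CPM to 354, 448 and 342 CPM (1.60 ± 0.33, adjusted p = 0.021). The other 2 of the 6 are the chromosome 5 and chromosome 9 peaks given above. The fifth rise with a control mean of at least 100 CPM, chr16:49574196-49574549 on the minus strand, was outside the naming rule and had 146, 109 and 120 CPM in controls and 330, 452 and 272 CPM at D3.

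The falls were fewer than the rises, a balance that turned without U11. The largest named fall was at chr9:80655289-80655482, plus strand, with 2.85, 17.5 and 11.1 CPM in controls and 0, 0.593 and 0 CPM at D3 (log2 fold change -5.49 ± 1.26, adjusted p = 0.037). It was low in the other phases of unloading too, with 0.871, 0 and 0.260 CPM at D1 and 0.684, 0 and 0.162 CPM at D7. The 3 falls with a control mean of at least 100 CPM were chr5:148528613-148529082 (plus), treated below, chr9:80165974-80167168 (minus) and, outside the naming rule, chr10:54352167-54352367 (plus). At chr9:80165974-80167168 controls had 181, 561 and 279 CPM and D3 libraries 73.2, 54.5 and 71.9 CPM, a fitted 5.10-fold fall (-2.35 ± 0.47, adjusted p = 0.016). The 2 peaks of the neighbouring group chr9:80150139-80154627 (minus) were called lower too. At chr10:54352167-54352367 the values were 142, 130 and 162 CPM against 59.2, 44.2 and 61.8 CPM (-1.39, adjusted p = 0.043).

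Some of the falls were narrow peaks that stood lower at D3 than at D1 and D7. Peaks at most 60 nt wide made up 5 of the 28 falls (17.9%) and 4 of the 90 rises (4.44%), against 6.05% of tested peaks. The limit of 60 nt was not set down beforehand, and the fall at chr14:46522194-46522253 is exactly 60 nt wide. At chr6:95095606-95095634, plus strand, levels were 10.1, 31.1 and 12.4 CPM in controls, 8.71, 21.8 and 7.72 CPM at D1, 0.887, 1.61 and 0.674 CPM at D3 and 12.1, 29.9 and 11.2 CPM at D7. At chr12:7927504-7927529, plus strand, they were 13.3, 16.8 and 8.52 CPM in controls, 0.838, 1.31 and 0.551 CPM at D3 and 10.6, 17.0 and 15.1 CPM at D7. At chr12:45720663-45720696, minus strand, they were 19.4, 17.1 and 15.1 CPM in controls, 1.87, 2.16 and 0.306 CPM at D3 and 13.5, 21.2 and 22.3 CPM at D7. All 3 D3 libraries lay below every control, D1 and D7 library at each of these 3 peaks, narrowly so at the last, where D1 rat U24 had 2.61 CPM. The peaks were chosen by their low D3 values, which favours such gaps and the differences from D1 and D7 given below. No share over all tested peaks is given for the gap, so it is a description. The low values were not particular to D3: R3 rat U4 had 2.34, 0.213 and 0.852 CPM at the 3 peaks, below every D3 library at chr12:7927504-7927529 and below U9 and U10 at chr12:45720663-45720696. Their log2 differences D3 minus D7 of -3.99, -3.93 and -3.67 were not called (adjusted p = 0.062, 0.062 and 0.11), and D3 minus D1 was called for the first 2 (adjusted p = 0.020 and 0.028) and not for the other (0.058). In the soleus of the same rats they changed by -2.79, -3.59 and -3.85, also without a call (adjusted p = 0.18, 0.084 and 0.094). The other narrow falls were chr14:46522194-46522253 (minus; log2 fold change -3.40) and the antisense peak chr10:53783884-53783940 of the Myh4 window. The 4 narrow rises, chr10:15449863-15449891 (minus), chr2:26085779-26085809 (plus), chr3:167346067-167346100 (plus) and chr5:117509306-117509316 (plus), changed by 3.09, 1.30, 1.58 and 2.65, with U11 the lowest D3 library in each.

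Neighbouring peaks were compared in direction. Of the groups of same-strand peaks joined by gaps of at most 5000 nt, 9 held more than 1 called peak, 19 called peaks in all, and 0 held calls in both directions; no expected count was computed, and rises outnumber falls among the calls. Among them were chr3:72214565-72219302 (minus), whose 2 peaks changed by 1.94 and 1.95 on the log2 scale, and chr1:104147252-104157927 (minus), whose 4 tested peaks had changes of 2.86 to 4.23, 2 of them called. Uncalled neighbours could differ, as at chr15:4064449-4084255 (plus), where 7 of 11 tested peaks were above 0 and changes ran from -1.63 to 3.80. Calls fell on 20 chromosomes for the rises and 13 for the falls, of the 22 with a tested peak.

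To place D3 within the unloading course, the same peaks were followed through all EDL groups. Comparisons with control share the control libraries, so values are given side by side. In the order D1, D3, D7, R1, R3, R7 the rises had a median log2 change against control of 1.65, 2.16, 1.74, 0.79, 0.68 and 0.34, and the falls of -1.11, -2.33, -1.24, -1.02, -0.67 and -0.64, while the medians over all tested peaks lay between -0.02 and 0.06. The peaks were chosen by their D3 values, so nothing is read from D3 being the highest. The median over the 90 rises in the single rats was 1.67 to 2.20 in the D3 group, 1.22 to 1.76 in D1, 1.43 to 1.75 in D7 and 0.18 to 0.35 in R7.

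**Figure D4:**
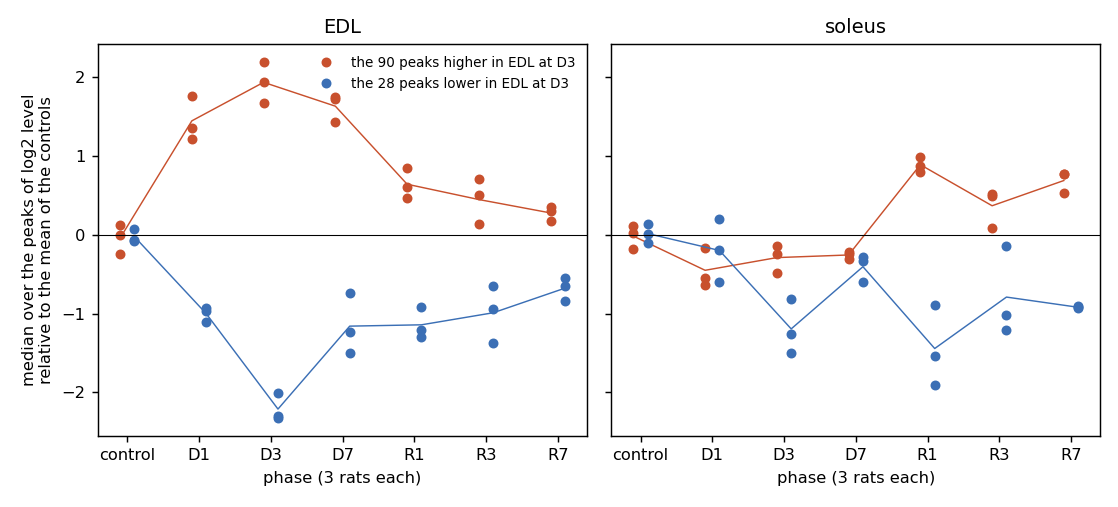
Median over the peaks called in EDL at D3 of the log2 level relative to the mean of the controls, for each rat (points) and each phase, in EDL and in the soleus of the same rats; lines join the phase means. In EDL the 90 rises are above 0 during unloading and approach 0 by R7, whereas in the soleus they are below 0 at D1, D3 and D7 and above 0 in recovery.

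The direct test of D3 against D1 leaves out the controls but uses the same 3 D3 libraries by which the rises and falls were chosen. Across all peaks, 94 were higher and 159 lower at D3 than at D1, the 1.01% and 1.7% given above. The 253 calls became 2 in a fit of the 6 libraries alone and ranged from 15 without U9 to 809 without U26, so the single calls below rest on the fit over all EDL libraries. Of the 90 rises, 12 were higher at D3 than at D1 and 0 were lower; of the 28 falls, 9 were lower and 0 higher. The median difference D3 minus D1 was 0.72 for the rises and -1.27 for the falls; the choice of peaks by their D3 values pushes these counts and medians in that direction, so they are a description. Among the named rises chrX:66602429-66602580 had 4.35, 14.3 and 7.59 CPM at D1 and 35.5, 43.4 and 25.8 CPM at D3 (difference 1.99 ± 0.48, adjusted p = 0.033), and chr15:4069082-4069615 had 1.74, 0.622 and 4.02 CPM at D1 and 18.5, 7.45 and 22.9 CPM at D3 (2.56 ± 0.60, adjusted p = 0.027). At other rises D1 had already reached the D3 level, as at chr1:261281619-261281935, with 156, 223 and 218 CPM at D1 (difference 0.22 ± 0.39, adjusted p = 0.80).

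The largest differences between D3 and D1 came from a group dominated by a single D1 library. The top 3, chr10:82749050-82749107, chr10:82757104-82757129 and chr10:82752682-82752747 (all plus), belong to a group of 22 peaks at chr10:82745711-82762741, of which 20 of 21 tested were called lower at D3. Its summed level was 1673, 306 and 9879 CPM at D1 (U24, U25, U26), 116, 696 and 121 CPM in controls and 93.4, 106 and 112 CPM at D3. U26 was the highest D1 library in 21 of 21 peaks, so that the difference rests largely on that rat.

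Between D3 and D7 edgeR's quasi-likelihood test called 1 peak (0.0107%), with 734 at an unadjusted p under 0.05, while DESeq2 called 35. The edgeR count was 0 in a fit of the 6 libraries alone (690 at an unadjusted p under 0.05), 0 with the lane as a block (309), and 0 without any of U9, U10, U1, U2 or U3 (328 to 955), so that this call rests on the chosen fit. That peak, chr5:148528613-148529082 on the plus strand, had 298, 370 and 204 CPM in controls, 696, 795 and 837 CPM at D1, 49.0, 70.5 and 90.3 CPM at D3, 314, 439 and 437 CPM at D7 and 480, 990 and 1266 CPM at R1. It was thus lower at D3 than in any library of those other groups, with differences of -2.50 ± 0.39 from D7 (adjusted p = 0.033) and -3.47 ± 0.40 from D1 (adjusted p = 0.00027), and it was the only fall called higher than control at D1. In the soleus of the same rats it went from 1479, 1268 and 1239 CPM to 474, 748 and 390 CPM, which was not called (adjusted p = 0.13). Those levels are on a scale set within that muscle, as are the soleus levels of the shared and opposite calls below. Of the other falls, 4 were called lower than control at D1 as well, where 1.16% of all tested peaks were called lower and 1.92% higher, chr15:34262711-34263295 (minus), chr19:23608463-23608800 (minus), chr4:14002946-14003254 (plus) and chr7:118130302-118130443 (plus), with D1 changes of -1.76, -1.84, -1.66 and -3.44.

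The design also asks whether fast and slow muscle of the same rats changed alike. The log2 difference of the D3 changes, EDL minus soleus, was called higher at 98 of 9945 peaks (0.985%) and lower at 11 (0.111%), in a fit over all 42 libraries. Of the 90 EDL rises 49 were among the former, and of the 28 EDL falls 0 were among the latter (4 with the rat as a replicate block); this difference contains the EDL change by which the rises were chosen. In the soleus on its own, whose libraries the choice did not use but which come from the same rats, the 90 rises had a median log2 change at D3 of -0.31 and 58 of them were below 0 (64.4%), against a median of 0.01 and 49.0% below 0 over all tested peaks. The 21 falls tested in the soleus had a median of -0.98 there, with 18 below 0. Deviations from the group means correlated across peaks between the muscles of a rat, with r from 0.28 to 0.56 in the 3 D3 rats and from 0.048 to 0.40 in the 3 controls, so that the soleus values are not independent of the choice and are given as a description.

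The EDL calls were also looked up among the calls of the soleus. The controls of both muscles were in lane 1 and no D3 library was. Unloading and lane therefore cannot be told apart for a change seen in both muscles. Among the rises 4 were called higher and 3 lower in the soleus, where the shares among peaks tested in both muscles were 0.433% and 0.325%; 1 fall was called lower. The 4 rises shared by both muscles, all outside the naming rule, were chr1:88123291-88123554 (minus), chr20:4873916-4874041 (minus), chr7:12404987-12405107 (minus) and chrX:15098834-15098944 (plus). At chrX:15098834-15098944 the EDL went from 21.5, 19.6 and 25.8 to 136, 102 and 80.7 CPM and the soleus from 35.1, 51.0 and 39.2 to 159, 109 and 137 CPM. Log2 changes of the 4 peaks were 1.26, 2.14, 1.49 and 2.25 in EDL and 1.41, 2.18, 1.45 and 1.69 in soleus. The shared fall was chr7:11383065-11383246 (plus), with 40.8, 21.1 and 31.3 CPM against 5.57, 5.46 and 4.59 CPM in EDL and 10.6, 6.69 and 7.66 CPM against 1.14, 1.75 and 0.283 CPM in soleus (adjusted p = 0.040 and 0.045).

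Opposite calls were seen at 3 peaks. At chr1:261281619-261281935, whose EDL values are given above, the soleus fell from 960, 905 and 961 CPM to 119, 99.6 and 130 CPM (log2 -3.02 ± 0.60, adjusted p = 0.024). At chr15:4069082-4069615 the EDL rose from 1.26, 1.07 and 1.06 to 18.5, 7.45 and 22.9 CPM, and the soleus fell from 57.0, 47.2 and 106 to 15.5, 1.252 and 5.66 CPM (adjusted p = 0.029). The other, outside the naming rule, was chr16:2142254-2142574 (minus), with 5.78, 4.29 and 3.41 against 15.9, 12.5 and 18.1 CPM in EDL and 16.8, 13.5 and 21.5 against 4.87, 4.88 and 7.93 CPM in soleus. The EDL minus soleus differences were 7.12 ± 0.79, 7.02 ± 0.96 and 3.37 on the log2 scale.

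Levels of the called peaks in both muscles were compared in the R7 libraries, which enter no D3 contrast except through the shared spread, and which are from rats in recovery and not in the normal state. There the soleus level exceeded the EDL level in 86 of the 90 rises (95.6%), 5 of the 28 falls (17.9%) and 50.4% of all tested peaks. The median log2 ratio, soleus over EDL with 0.5 CPM added, was 2.07 for the rises, -1.31 for the falls and 0.01 for all tested peaks. The peak at chr8:55178466-55179112 had 1013, 677 and 669 CPM in the EDL and 3287, 10200.2 and 11819.5 CPM in the soleus of the R7 rats. The EDL levels of this peak are on the scale set within the EDL, which the soleus levels do not share. In the soleus of the R7 rats the 90 rises stood at a median log2 level of 0.53, 0.77 and 0.77 above the soleus controls; at chr1:254735508-254735753 the soleus had 25.8, 3.21 and 12.9 CPM in controls and 379.5, 669 and 428 CPM at R7. Rises were low in control EDL by selection, and a deposited peak had to reach a minimum level in some library of either muscle; the part of this in the pattern was not tested.

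A change in level can also be a change in which start of a locus is used. Within groups of neighbouring same-strand peaks, 4 of 2290 peaks changed their share at D3 (0.175%, edgeR's diffSpliceDGE, Benjamini-Hochberg adjusted p below 0.05), in 2 groups. The count was 0 with peaks joined within 1000 nt (39 at an unadjusted p under 0.05), 1 without U6 or without U7, 2 without U8 and 11 without U11. In the group of 7 tested peaks at chr9:119321366-119333408, minus strand, the most upstream peak chr9:119332788-119333408 held 81.3%, 68.2% and 78.9% of the group's level in controls and 21.04%, 16.2% and 25.4% at D3 (not called, adjusted p = 0.13), although its own level was 113, 110 and 121 CPM in controls and 153, 168 and 171 CPM at D3. The next peak downstream, chr9:119328971-119329559, went from 8.77%, 17.2% and 11.9% to 74.5%, 79.2% and 68.2% (log2 usage 2.56, adjusted p = 0.011). The former had the larger share in all 3 controls and the latter in all 3 D3 rats. The most downstream peak, chr9:119321366-119321534, had similar levels in both groups (9.38, 13.2 and 7.88 CPM against 7.64, 7.07 and 13.2 CPM, adjusted p = 0.92) while its share fell from 6.77%, 8.17% and 5.14% to 1.05%, 0.685% and 1.95% (adjusted p = 0.011).

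**Figure D5:**
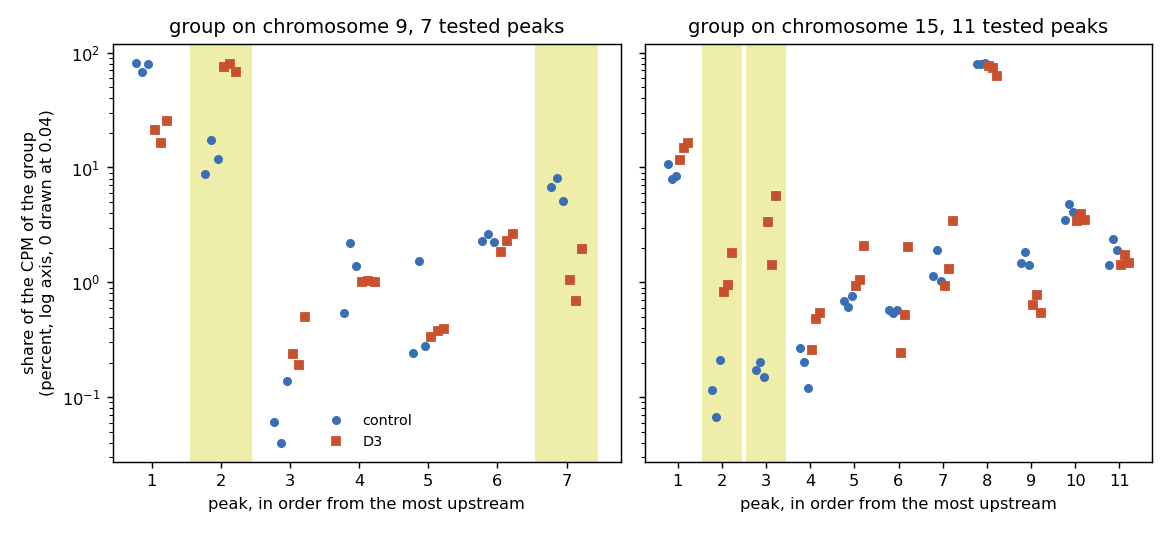
Share of each peak in the summed CPM of its group (percent, logarithmic axis, 0 drawn at 0.04) for the group on chromosome 9 (7 tested peaks) and that on chromosome 15 (11 tested peaks), ordered from the most upstream, with controls as blue circles and D3 as red squares; shaded peaks changed their share by the test. On chromosome 9 the leading peak changes from the first to the second, and on chromosome 15 the eighth peak leads in both groups.

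In the second group, at chr15:4064449-4084255 (plus, 11 tested peaks), the changing peaks were minor. The leading peak chr15:4076879-4077181 held 80.0%, 79.6% and 81.3% in controls and 76.5%, 72.9% and 62.7% at D3. The upstream peaks chr15:4068255-4068529 and chr15:4069082-4069615 went from 0.115%, 0.0678% and 0.211% to 0.831%, 0.949% and 1.80% (log2 usage 2.98, adjusted p = 0.011) and from 0.173%, 0.203% and 0.151% to 3.36%, 1.43% and 5.65% (4.21, adjusted p = 2.4e-10). Both peaks were also called as rises.

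Within peaks, the base of the leading start was followed. Of the 2869 tested peaks with at least 50 tags in every library, the most used base, with tags pooled by group, was the same in controls and at D3 in 78.2%, and it moved by more than 20 nt in 8.16%. It was the same in 13 of 19 rises and 10 of 10 falls with that depth. Read library by library, 1 base led in all 6 libraries in 53.9% of these peaks, 8 of the 19 rises and 8 of the 10 falls. The median share of a peak's tags at its leading base was 26.5% in controls and 25.5% at D3 over these peaks, 42.5% and 43.8% in the rises, and 50.1% and 50.4% in the falls. The leading base of chr8:55178466-55179112 was 55178826 in all 6 libraries, with 43.1%, 43.7% and 40.8% of the tags in controls and 63.3%, 60.8% and 45.9% at D3. At chr9:80165974-80167168 base 80167038 took 88.4%, 88.6% and 88.7% in controls and 81.8%, 82.7% and 87.6% at D3. A small shift was seen at chr5:159967736-159968618, where base 159968061 led in the controls and in U11 and base 159968063 in U9 and U10.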

How the data were processed

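Libraries were made from total RNA of the EDL and soleus of 21 rats by nAnT-iCAGE, a CAGE method without amplification of the cDNA, and sequenced as single reads. The counts deposited by the authors are whole-number CAGE tags per TSS peak and library, not normalised, on the Rnor_6.0 build; 1 set of peaks, kept by the authors above a minimum level in some library, serves all libraries. The submitters' processing notes name Trimmomatic 0.38, BWA and HISAT2, whereas the study's methods name another aligner, and the file headers name none, so the aligner behind these counts is not settled. The authors' normalised columns were not used. Start positions within peaks came from the deposited tag counts per base, whose sums equalled the table in all 9343 tested peaks.

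Each library was assigned to its group by its labels. Peaks low in all groups were left out with filterByExpr, and counts were tested with edgeR 4.0.16 (R 4.3.3; glmQLFit, glmQLFTest, TMM) across all 21 EDL libraries, which share 1 estimate of the spread, and with Benjamini-Hochberg adjustment over all tested peaks; the difference between muscles was fitted over all 42 libraries, and start usage with diffSpliceDGE over peaks joined within 5000 nt. Mitochondrial peaks stayed in the fit and out of the counts. DESeq2 1.42.0, other scalings, filters, library sets, thinning to the shallowest library, lane and left-out libraries were alternatives, and the code was checked on simulated data. Standard errors of log2 changes were derived from the test, as the absolute change over the square root of its F statistic. The common biological coefficient of variation of the EDL libraries was 0.362. EDL and soleus of a rat share its number: the correlation of their deviations from the group means was -0.31 to 0.56 (median 0.25) and above 0.1 in 15 of 21 rats.

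Peaks were named by a rule: among calls without overlap and with at least 10 CPM in either group, the 12 largest rises and 12 largest falls, the 6 called peaks of highest level, the peaks of the Myh4 and Rtkn windows, and the top calls of the other comparisons; others are said to lie outside it. The members and this rule were chosen with earlier results of these data known. Gene lists and cell type markers that had been set down were not applied, since they need an annotation of the files' build, so the part of other cell types was not tested.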

Additional observations from a re-analysis of the deposited data

Results flagged for a closer look

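The D3 change differed between EDL and soleus at 109 of 9945 peaks, 98 with a higher and 11 with a lower value in EDL (edgeR's quasi-likelihood test of the difference, Benjamini-Hochberg adjusted p below 0.05). Of these, 49 were also called in EDL and 6 were not tested in the EDL fit. Of the 98, the EDL change was above 0 in 92 and the soleus change below 0 in 91. Over all peaks tested in EDL, the EDL change was below 0 in 47.2% and the soleus change, where tested, in 49.0%. The 98 were chosen by the difference of these changes, which favours both signs, so the counts are a description.

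The 3 largest differences, on CPM scaled over all 42 libraries, rested on low or uneven levels. At chr5:160471679-160471960 (minus) the EDL had 0 tags in all controls and 9.85, 19.8 and 1.49 CPM at D3, and the soleus 2.99, 0.231 and 0.237 CPM in controls and 0.191, 0 and 0 CPM at D3, a fitted log2 difference of 13.31 that depends on the handling of the zeros (adjusted p = 0.0029). At chr8:117172660-117172863 (plus) the difference was 8.67 (adjusted p = 0.00096), with 0.0931, 0 and 0.236 CPM in control EDL and 12.4, 32.3 and 3.19 CPM at D3, and 1.39, 1.38 and 0.475 CPM in control soleus and 0.191, 0.509 and 0.253 CPM at D3. At chr16:21288802-21288882 (plus) it was -12.91 (adjusted p = 0.039): the EDL had 5.49, 40.8 and 7.78 CPM in controls and 0.277, 1.02 and 1.29 CPM at D3, whereas the soleus had 0, 0 and 0.119 CPM in controls and 1.15, 0.170 and 53.7 CPM at D3. The last value comes from rat U11 alone, and this peak was not called with the rat as a replicate block (adjusted p = 0.11) or with the lane as a block (0.098).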

How the results depend on the processing

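For D3 against control in EDL (118 calls), DESeq2 called 286 peaks, all 42 libraries in 1 fit gave 209 without lane and 0 with lane, and leaving out 1 library gave 5 to 650, the lowest without U7 and the highest without U11. All other settings stayed within 1.5 times. Of the 118, 117 were called by DESeq2, 114 with RLE size factors, 66 in a fit of the 6 libraries alone and 82 after thinning. With lane, where lane 1 holds only the D1 soleus of U24 besides the controls, 117 had the same direction. For D3 against D1 (253 calls), DESeq2 gave 620, the 6 libraries alone 2, lane as a block 456, and the same libraries without the block, a setting chosen after seeing the data, 127; leaving out 1 library gave 15 (without U9) to 809 (without U26), with 143, 95, 37 and 674 without U24, U25, U10 and U11. For D3 against D7 (1 call), DESeq2 gave 35, tag totals 4, the 6 libraries alone 0 (690 at an unadjusted p under 0.05), lane 0 (309 at an unadjusted p under 0.05) and leaving out 1 library 0 to 172 (without U11). For start usage (4 calls), joining peaks within 1000 nt gave 0 (39 at an unadjusted p under 0.05) and within 20000 nt 21, the 6 libraries alone 9, and leaving out 1 library 1 (without U6 or U7) to 11 (without U11). For the difference between muscles (109 calls), DESeq2 gave 182 and leaving out 1 library 66 (without U8 in soleus; 71 and 72 without U8 and U10 in EDL) to 125 (without U11 in EDL). With the rat as a replicate block it gave 158, of which 97 were among the 109, and with lane 83. The causes were not tested. No paired analysis was possible for the comparisons between phases because their rats differ. Of 32 named called peaks, none reversed; 28 were not called without U7 and 32 not with lane.

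In EDL, lane and control cannot be told apart, 3 rats a group leave the count of calls to single libraries, and the controls are the shallowest of the 6 libraries, with counting error largest at peaks of a few tags. Separate rats are the replicates.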

Other observations

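For each of the 6 libraries the fit was repeated without it, and the left-out library was then read at the peaks called from the other 5. The libraries it was set against had helped to choose these peaks, which favours a gap there more than over all tested peaks. A left-out control also shared its lane with the other controls. The counts are therefore a description. Without U11, 650 peaks were called, 647 of which had a value in U11; U11 lay above every control in 218 of the 251 higher and below every control in 219 of the 396 lower ones, against 30.4% and 24.9% of all tested peaks. U11 had a median log2 distance to the controls of 0.84 at the higher and -0.70 at the lower ones, where the fits without it gave medians of 1.89 and -2.73. Without U7, the left-out control lay below every D3 library at all 5 peaks called, all higher, against 35.5% of all tested peaks. U6, U8, U9 and U10 each lay beyond every library of the other group at every peak called without them. These were 38 higher and 16 lower calls for U6, against 31.0% and 27.1% of all tested peaks. They were 19 and 11 for U8 (33.8% and 29.3%), 32 and 1 for U9 (35.7% and 31.5%) and 26 and 4 for U10 (35.0% and 33.5%).

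The libraries differed in how many bases carried tags. U7 had 1383183 distinct start positions at 4488404 tags, 3.24 tags per position, and U8 had 5.29, whereas U6 had 11.9 and the D3 libraries 10.5 to 19.4.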
